A study of Mus musculus with 2 samples.

Results

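The S100 proteins and galectins form a set of 9 genes out of the 27998 in the count files. Of these, 6 encode S100 proteins (S100a4, S100a6, S100a10, S100a11, S100a13 and S100a16) and 3 encode galectins (Lgals1, Lgals3 and Lgals9). They were followed in single mononuclear cells from the quadriceps of the limb and from the diaphragm of C57BL/6J mice. No treatment, age or genotype beyond the strain was given for either tissue. Each tissue was 1 droplet library that pooled cells of 5 mice, so no difference below has a replicate check and no test was possible. The quadriceps library held 5159 barcodes and 50854519 unique molecular identifiers (UMIs), and the diaphragm library held 2499 barcodes and 28545242 UMIs.

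The genes were listed with measured levels of these libraries known, those of fibro-adipogenic progenitors (FAPs) in the 2 tissues above all. The differences between tissues in FAPs are therefore a description. FAPs are the resident connective tissue cells of muscle that lay down matrix and can turn into fat cells. Here a FAP was a barcode with at least 1 UMI of the receptor gene Pdgfra and at least 50 UMIs of the proteoglycan gene Dcn, with at most 5% mitochondrial UMIs. This left 1769 FAPs in quadriceps and 1567 in diaphragm. Cells with a UMI of Prg4, the gene of the joint lubricant lubricin, were kept apart from cells with none. There were 851 Prg4-positive and 918 Prg4-zero FAPs in quadriceps, and 715 and 852 in diaphragm. The median depth was 11083 and 12755 UMIs per Prg4-zero FAP of quadriceps and diaphragm, and 11351 and 13506 per Prg4-positive FAP.

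S100 proteins are small calcium-binding proteins that usually act as dimers and change the behaviour of partner proteins, many of them annexins or parts of the cytoskeleton. S100A4 is also known as fibroblast-specific protein but is made by leukocytes too. Galectins bind beta-galactoside sugars on glycoproteins, inside and outside the cell. Galectin-3, the product of Lgals3, has long been used as a macrophage marker.

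The 6 S100 genes lie in 2 groups on mouse chromosome 3 (GRCm38). S100a13, S100a16, S100a4 and S100a6 lie between positions 90514435 and 90624181, and S100a11 and S100a10 lie between 93520488 and 93564643. Lgals9 is on chromosome 11, Lgals3 on chromosome 14 and Lgals1 on chromosome 15. S100a4 (90603771 to 90606045) and S100a6 (90612882 to 90624181) are near neighbours on the same strand, with S100a5 between them. The gene model Gm42674 shares exon bases with S100a4 on the same strand and had 0 UMIs in both libraries, so reads that could be of either gene may be missing from the S100a4 counts.

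RefSeq promoter windows (GRCm38.p6) were matched for 7 of the 9 genes, and not for S100a10 or Lgals1. The 150 bases before the start of the near neighbours S100a4 and S100a6 are shown. These genes lie close together on the chromosome but had FAP levels that differed between the tissues to an unlike degree. Capitals mark a match to TATAAA on either strand. The windows are chr3:90603620-90603769 and chr3:90612744-90612893, both on the plus strand. They end at RefSeq starts, which need not match the gene spans given above. The last bases of the S100a6 window lie inside the span given for that gene, which starts at 90612882.
S100a4: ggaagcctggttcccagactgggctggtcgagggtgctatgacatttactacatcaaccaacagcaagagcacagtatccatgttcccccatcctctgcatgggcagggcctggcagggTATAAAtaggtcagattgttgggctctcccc
S100a6: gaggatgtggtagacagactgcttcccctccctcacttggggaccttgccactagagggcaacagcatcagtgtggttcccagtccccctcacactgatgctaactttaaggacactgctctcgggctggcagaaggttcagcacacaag
The S100a4 match began at position -31, where -1 is the base before the start, and no other member window held these letters. Of 32851 promoter windows of this length, 7.57% held TATAAA. The letters TGANTCA, which the AP-1 factors Fos and Jun bind, occurred on either strand in the S100a11 window alone among the members and in 4.24% of all windows. The letters GGGCGG occurred in the windows of S100a11, of Lgals3 and of 1 of the 2 S100a16 starts, and in 28.6% of all windows.

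In FAPs, S100a4 and Lgals3 were far lower in diaphragm than in quadriceps, whether or not the cell held Prg4. Levels are given as CPM, the UMIs of a gene per 1000000 UMIs summed over the cells of a group, with exact Poisson 95% intervals that cover counting error only. S100a4 stood at 278 CPM (268 to 288) in Prg4-zero FAPs of quadriceps and at 25.0 CPM (22.2 to 28.2) in those of diaphragm. In Prg4-positive FAPs it stood at 664 CPM (648 to 680) and 31.2 CPM (27.9 to 34.9). Quadriceps was thus 11.1-fold (9.80 to 12.6) and 21.2-fold (18.97 to 23.9) higher, and the intervals of the 2 tissues lay far apart.

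Lgals3 was a low gene in FAPs of both tissues. It stood at 58.8 CPM (54.2 to 63.6) against 5.86 CPM (4.52 to 7.47) in Prg4-zero cells, from 618 and 65 UMIs. In Prg4-positive cells it stood at 75.5 CPM (70.3 to 81.0) against 6.47 CPM (4.99 to 8.25). The quadriceps level was 10.0-fold (7.76 to 13.2) and 11.7-fold (9.06 to 15.3) that of diaphragm.

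S100a6, also called calcyclin, was the next most different member. It stood at 6108 CPM (6061 to 6155) in quadriceps and 3139 CPM (3106 to 3172) in diaphragm Prg4-zero FAPs, and at 6931 and 3297 CPM in Prg4-positive FAPs. The log2 difference, taken after adding 1 CPM to each level, was -0.96 and -1.07. S100a16 gave -0.95 and -0.67. Its levels were 476 CPM in quadriceps and 245 CPM in diaphragm for Prg4-zero cells, and 375 and 236 CPM for Prg4-positive cells.

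**Figure D1:**
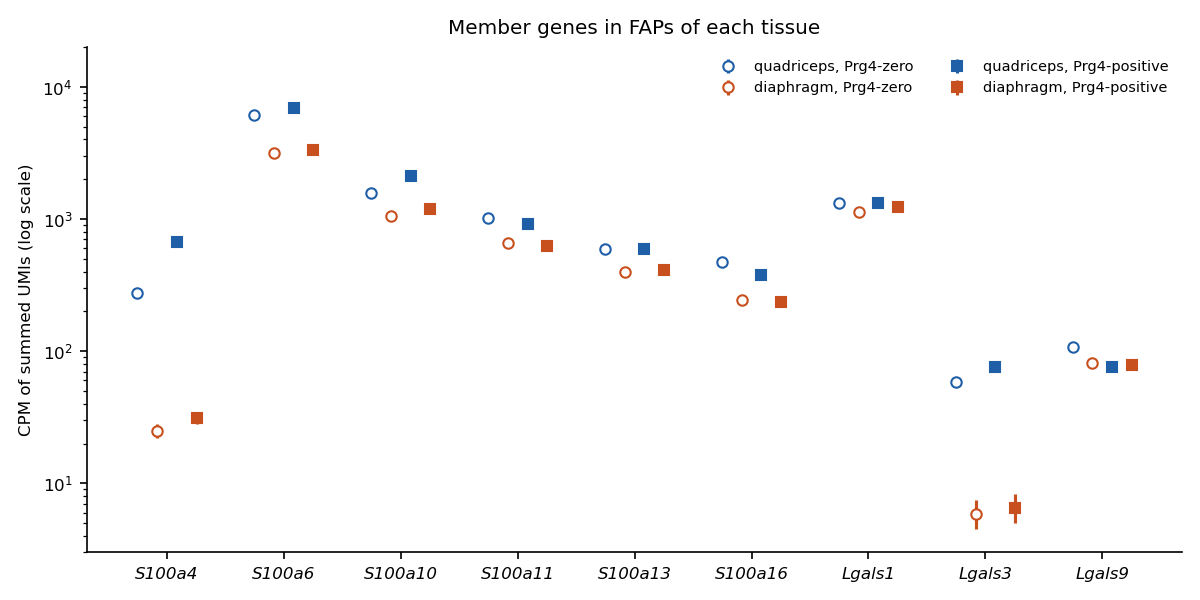
Level of each member gene in FAPs, in CPM of summed UMIs on a log axis, for quadriceps (blue) and diaphragm (orange), in Prg4-zero (open circles) and Prg4-positive (filled squares) cells; bars are exact Poisson 95% intervals and most are smaller than the symbols. S100a4 and Lgals3 go from 278 and 58.8 CPM in quadriceps Prg4-zero cells to 25.0 and 5.86 CPM in diaphragm, while Lgals1 and Lgals9 lie close together in the tissues.

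S100a10, the partner of annexin A2, was at 1573 and 1051 CPM in Prg4-zero FAPs of quadriceps and diaphragm (log2 -0.58), and at 2131 and 1183 CPM in Prg4-positive FAPs (-0.85), where it differed more than S100a16. S100a11, which binds annexin A1, gave log2 differences of -0.63 and -0.55. S100a13, which takes part in the release of proteins without a signal peptide, gave -0.59 and -0.53. The galectins other than Lgals3 differed less than every S100 member in both Prg4 groups. Lgals1, which encodes the abundant galectin-1, was at 1319 and 1134 CPM in Prg4-zero cells (-0.22) and at 1323 and 1239 CPM in Prg4-positive cells (-0.09). Lgals9 gave -0.39 in Prg4-zero and 0.07 in Prg4-positive cells, and the interval of the latter (-0.07 to 0.22) held 0.

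Against all genes, 2 of the 9 members were past 2-fold lower in diaphragm in Prg4-zero FAPs, where 3.59% of the 3340 genes tested were, a gene being tested if either tissue reached 50 CPM. In Prg4-positive FAPs 3 members were, against 2.56% of 3314 genes. No member was past 2-fold higher, against 4.34% and 3.8% of genes. All 9 members in Prg4-zero and 8 in Prg4-positive cells were lower in diaphragm by any amount, against 65.6% and 66.2% of genes. This comparison chose the genes, so nothing is read from these counts. The median log2 difference of all tested genes was itself -0.11 in Prg4-zero and -0.10 in Prg4-positive cells. Relative to that shift, S100a4 lay at -3.31 and -4.26, Lgals3 at -3.02 and -3.25, S100a6 at -0.85 and -0.97, and Lgals1 at -0.11 and 0.01, so the sign for Lgals1 in Prg4-positive cells turned. S100a4 ranked 6 from the lowest of 3340 genes in Prg4-zero and 5 of 3314 in Prg4-positive FAPs. Lgals3 ranked 8 and 6. The ranks come from the comparison that chose the genes, so nothing is read from them. Both genes reached 50 CPM, and so were tested, through quadriceps alone. Nearest the 2-fold line were S100a6, just outside it in Prg4-zero cells and just inside it in Prg4-positive cells, and S100a16 in Prg4-zero cells, just outside it.

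**Figure D2:**
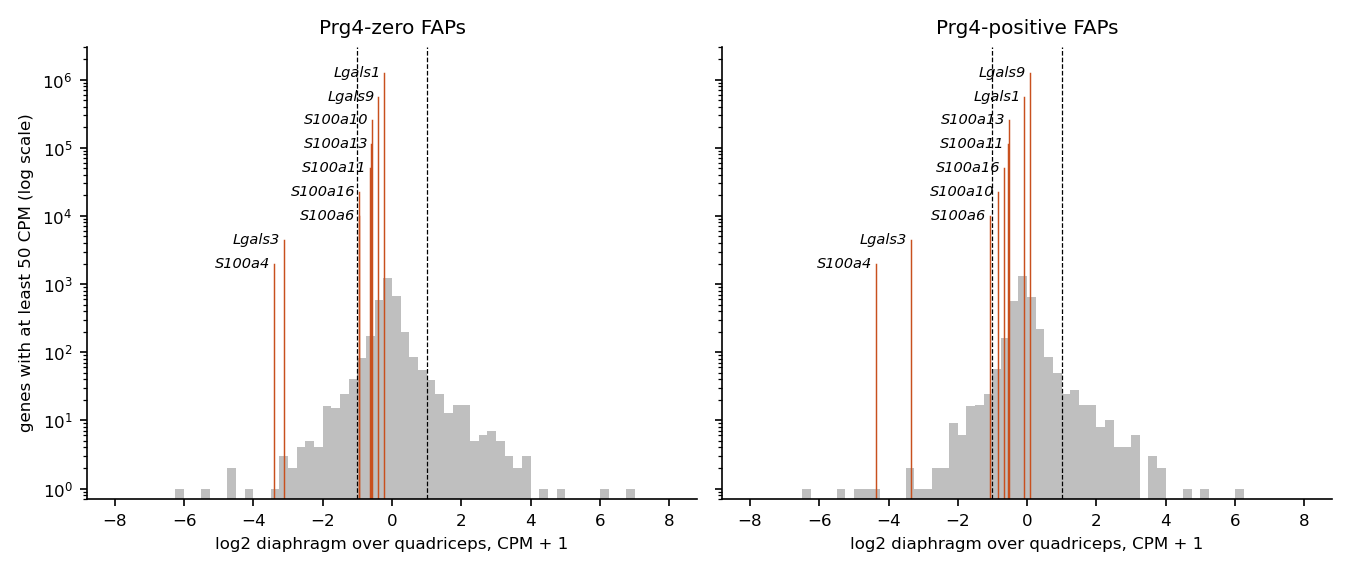
Number of genes (log axis) at each log2 difference between diaphragm and quadriceps FAPs for the genes tested, in Prg4-zero (left) and Prg4-positive (right) cells; dashed lines mark 2-fold and orange lines mark the members, drawn to different heights only to separate their names. S100a4 and Lgals3 lie in the left tail of this comparison, which chose the genes, at -3.42 and -3.12 on the left and -4.37 and -3.36 on the right.

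The 2 strongly different genes were spread unevenly over single cells. In quadriceps Prg4-zero FAPs S100a4 had a median of 0 UMIs per cell, a 95th percentile of 18.1 and a maximum of 79, and 45.9% of the cells had a UMI. In Prg4-positive FAPs of quadriceps the median was 2, the maximum 173 and the share 67.0%. In diaphragm 16.4% of Prg4-zero and 22.2% of Prg4-positive cells had a UMI of S100a4, and the 95th percentiles were 1 and 2 UMIs. S100a6 had at least 1 UMI in every FAP of both tissues, with medians of 63 and 36 UMIs in the Prg4-zero cells of quadriceps and diaphragm. The lower S100a6 level in diaphragm was therefore found throughout the cells, whereas S100a4 was high in a fraction of the quadriceps cells.

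Shares of cells depend on depth, so every cell was thinned to 1000 UMIs. S100a4 was then seen in 23.0% of quadriceps FAPs (exact binomial 95% interval 21.1 to 25.0) and in 2.62% of diaphragm FAPs (1.88 to 3.53), against 56.0% and 19.1% without thinning. The lowest class for S100a4 was quadriceps B cell-like cells, at 0.465% (0.01 to 2.56) after thinning and a median of 2997 UMIs per cell before it, against medians of 10782 and 12572.5 UMIs for FAPs of quadriceps and diaphragm without the mitochondrial limit. Smooth muscle-like cells of quadriceps had 4.80% (3.64 to 6.21), with a median of 14711 UMIs, and 0 of 46 in diaphragm had a UMI, which allows up to 7.71%. B cell-like cells of diaphragm had 2.08% (0.05 to 11.1). The interval of the thinned share in diaphragm FAPs overlapped those of both low diaphragm classes. Summed without thinning, diaphragm FAPs held 710 S100a4 UMIs among 25876869, or 27.4 CPM (25.5 to 29.5), smooth muscle-like cells 2 among 497745 and B cell-like cells 41 among 254847. Lgals3 was seen in 5.71% of quadriceps FAPs (4.67 to 6.89) and 0.893% of diaphragm FAPs (0.489 to 1.49), and in 1.14% of quadriceps smooth muscle-like cells (0.606 to 1.93), while in diaphragm 0 of 46 smooth muscle-like and 0 of 48 B cell-like cells had one. How much of the diaphragm FAP levels of S100a4 and Lgals3 was free RNA was not tested, and the folds above are of the levels as measured. The other 7 members were seen in diaphragm FAPs at shares from 7.28% (Lgals9) to 92.5% (S100a6).

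In quadriceps FAPs S100a4 was higher in cells with more Prg4. It stood at 278 CPM in cells with 0 Prg4 UMIs, at 526 CPM with 1 to 4, at 547 CPM with 5 to 9, at 672 CPM with 10 to 19 and at 1026 CPM (983 to 1071) with 20 or more. In diaphragm the same bins gave 25.0, 29.3, 33.3, 29.9 and 39.7 CPM, the last with an interval of 28.7 to 53.5 from 43 UMIs. The log2 difference of Prg4-positive over Prg4-zero cells was 1.25 (1.19 to 1.32) in quadriceps and 0.31 (0.08 to 0.56) in diaphragm, and these intervals did not overlap. S100a4 was the single member past 2-fold in this split in quadriceps, where 1.21% of genes were past 2-fold higher and 1.78% past 2-fold lower in Prg4-positive cells. Of 7 members tested in diaphragm 0 were, against 0.456% of genes higher and 0.326% lower.

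S100a10 was likewise higher in quadriceps cells with more Prg4, from 1573 CPM at 0 UMIs to 2325 CPM at 20 or more, with a log2 difference of 0.44 for Prg4-positive over Prg4-zero cells against 0.17 in diaphragm. Lgals9 and S100a16 were lower in quadriceps cells with more Prg4. Lgals9 went from 107 CPM at 0 UMIs to 59.8 CPM at 20 or more, and S100a16 from 476 to 318 CPM. In diaphragm both kept to a narrow range over the bins, Lgals9 at 71.1 to 82.2 CPM and S100a16 at 229 to 252 CPM. Lgals1 differed by 0.003 between Prg4-positive and Prg4-zero cells on the log2 scale in quadriceps (-0.03 to 0.04).

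**Figure D3:**
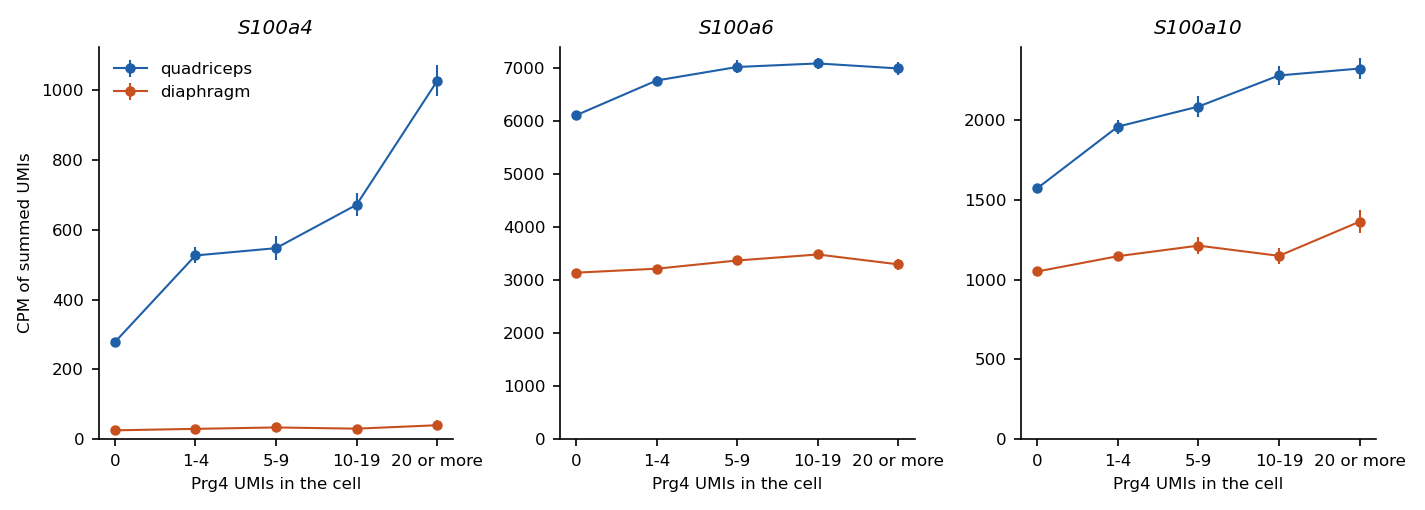
CPM of S100a4, S100a6 and S100a10 in FAPs grouped by the number of Prg4 UMIs in the cell, for quadriceps (blue) and diaphragm (orange), with exact Poisson 95% intervals and axes from 0. S100a4 goes from 278 to 1026 CPM over the quadriceps groups and stays at 25.0 to 39.7 CPM in diaphragm.

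Several values moved with the tissue in the same FAPs. The summed level of 8 general immune cell genes was 89.6 CPM in quadriceps and 6.94 CPM in diaphragm Prg4-zero FAPs, and 39.0 and 5.97 CPM in Prg4-positive FAPs. Of the 8 macrophage or monocyte markers, whose sum was 35.9 and 12.1 CPM in Prg4-zero cells, 0 were at 0 in quadriceps and 4 were at 0 in diaphragm. In Prg4-positive cells the same markers summed to 16.4 and 15.2 CPM, with 2 at 0 in quadriceps and 0 in diaphragm. The macrophage gene Lyz2 had 226 UMIs in quadriceps and 5 in diaphragm Prg4-zero FAPs. In macrophage or monocyte-like cells of quadriceps there were 0.108 S100a4 UMIs and 0.0722 Lgals3 UMIs for each Lyz2 UMI, and in those of diaphragm 0.243 and 0.211. In Prg4-zero FAPs there were 12.9 and 2.73 in quadriceps, and 55.6 and 13 in diaphragm from the 5 Lyz2 UMIs. In Prg4-positive FAPs there were 105 and 11.97 in quadriceps, and 34.9 and 7.22 in diaphragm. Without the FAPs that held any UMI of the 8 immune genes, S100a4 differed by log2 -3.56 and Lgals3 by -3.07 in Prg4-zero cells, and the genes differed by -4.35 and -3.40 in Prg4-positive cells, a choice made after seeing the data. The part of immune cell RNA in the differences between tissues was not tested.

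The 6 immediate early genes (Fos, Junb, Jun, Egr1, Cyr61 and Atf3), which respond within minutes to stimuli that include tissue dissociation, summed to 2134 CPM in quadriceps and 13368 CPM in diaphragm Prg4-zero FAPs, and to 1728 and 11834 CPM in Prg4-positive FAPs. Tenocyte markers summed to 164 and 997 CPM and mesothelial markers to 13.97 and 130 CPM in Prg4-zero cells. In Prg4-positive cells tenocyte markers summed to 655 and 2085 CPM and mesothelial markers to 2.52 and 70.7 CPM. Smooth muscle markers were higher in quadriceps, at 229 and 80.6 CPM in Prg4-zero and 252 and 58.8 CPM in Prg4-positive cells, as were erythroid markers at 4.37 and 0.901 CPM in Prg4-zero cells. The part of these 4 lists in the results was not tested. The 6 immediate early genes took 0.3 to 1% of the UMIs in 124 and 223 Prg4-zero FAPs of quadriceps and diaphragm, and in 127 and 216 Prg4-positive FAPs. Within this range, also chosen after seeing the data, S100a4 was still lower in diaphragm by log2 -2.42 and -3.75 and Lgals3 by -2.57 and -3.05. The smaller differences shrank in the Prg4-zero cells, to -0.44 for S100a6, -0.03 for S100a10, 0.01 for S100a11, -0.14 for S100a13 and -0.52 for S100a16. In the Prg4-positive cells S100a6 stood at -0.87 and S100a10 at -0.43. The part of the immediate early state in the differences of all gated FAPs was not tested further.

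In the main clustering, which had no mitochondrial limit, the gate and the joint clusters of both libraries did not match in diaphragm. Of the gated quadriceps cells, 98.3% were in clusters that carried the FAP name, but in diaphragm 35.2% were. A further 64.6% of the diaphragm cells lay in clusters led by Has1 and Ptx3 or by Slit2 and Mfap4, which showed all 7 FAP markers but stayed unnamed by the marker rule. Gated cells of FAP-like clusters alone came to 905 Prg4-zero cells of quadriceps and 321 of diaphragm, and to 834 and 230 Prg4-positive cells. The unnamed clusters were thus left out of diaphragm, while nearly all quadriceps cells stayed. Over all gated cells S100a6 stood at 3814 CPM in the cluster led by Has1 and at 2612 CPM in that led by Slit2. In the diaphragm cluster kept, led by Cxcl1 and Ces1d, it stood at 3125 CPM. With these cells, 5 members were past 2-fold lower in diaphragm in Prg4-zero cells, where 5.5% of genes were. They were S100a11 (-1.05), S100a6 (-1.04) and S100a16 (-1.03) in addition to S100a4 (-3.28) and Lgals3 (-4.27). In Prg4-positive cells 4 were, against 3.53% of genes, with S100a10 (-1.01) joining S100a4, Lgals3 and S100a6. When cells were clustered within 5% mitochondrial UMIs, FAP-named clusters held both tissues. That led by Fam167a had 387 quadriceps and 282 diaphragm cells, though that led by Bmp3 had 268 and 8. Unnamed clusters whose best match was FAP held 243, 259 and 120 diaphragm cells. Member differences were not taken with those clusters.

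**Figure D4:**
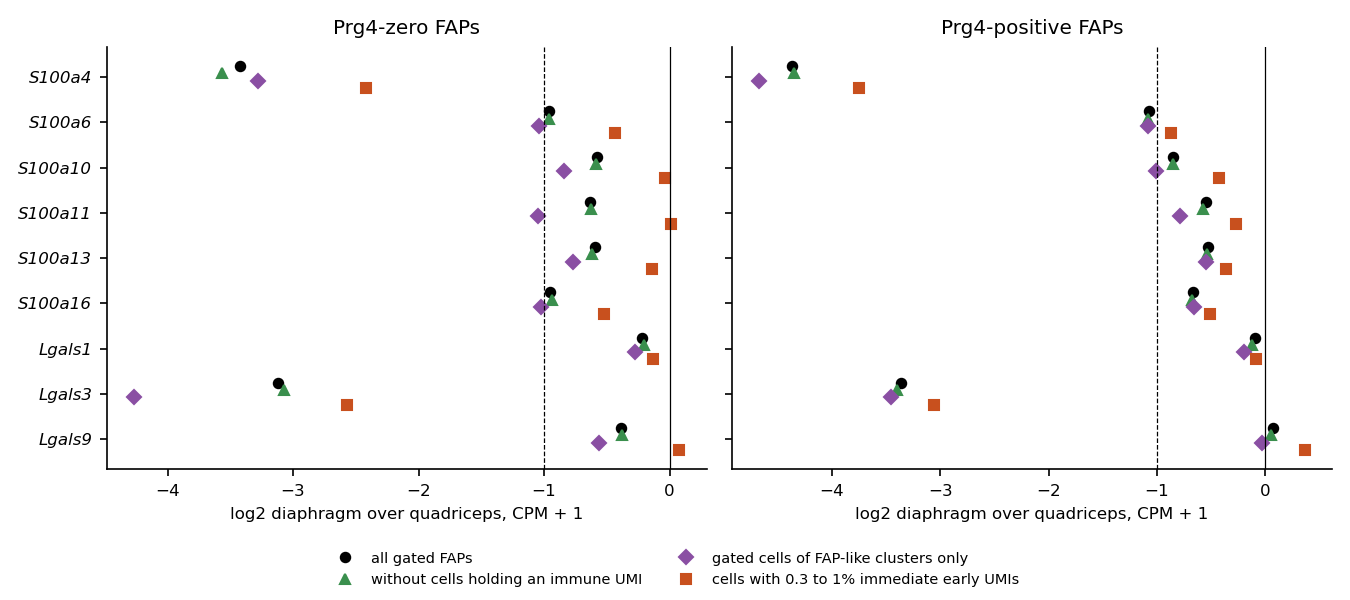
Log2 difference of diaphragm over quadriceps FAPs (CPM + 1) for each member in all gated cells, without cells that held an immune UMI, in gated cells of FAP-like clusters alone, and in cells with 0.3 to 1% immediate early UMIs; Prg4-zero cells are on the left, Prg4-positive on the right, and the dashed line marks 2-fold. S100a4 and Lgals3 stay past 2-fold lower in each of these choices (at -2.42 or lower), while S100a10 and S100a11 reach -0.03 and 0.01 in Prg4-zero cells of the immediate early range.

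S100a4 was low in the gated cells of each of 3 diaphragm clusters and varied between 3 clusters of quadriceps. The quadriceps cluster led by Dmkn and Bmp3 held 254 CPM, that led by Ptn and Gdf10 held 531 CPM and that led by Lrrtm3 and Mme held 606 CPM. The diaphragm clusters held 25.5, 27.6 and 30.9 CPM. The Dmkn and Bmp3 cluster held the highest level among these 6 clusters of 7 members, all except S100a4 and Lgals1, with S100a11 at 1355 CPM, S100a13 at 766 CPM, S100a16 at 612 CPM and Lgals9 at 123 CPM. Lgals3 was at 11.3 CPM in the diaphragm cluster led by Has1 and Ptx3, against 3.41 and 2.64 CPM in the other two of that tissue. These clusters were made without the member genes, but each was nearly all of 1 tissue. Those led by Ptn, Dmkn and Lrrtm3 held 1120, 781 and 599 quadriceps cells and 2, 1 and 0 diaphragm cells. Those led by Cxcl1, Slit2 and Has1 held 7, 11 and 4 quadriceps cells and 783, 763 and 606 diaphragm cells. The clusters thus repeat the comparison of tissues and give no like state in both.

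FAPs with a UMI of Pi16, a gene of the less committed adventitial fibroblasts, differed in most S100 genes from those without. In Prg4-zero cells of quadriceps (613 with and 305 without Pi16), S100a11 was higher by log2 0.69 (0.62 to 0.76), S100a16 by 0.54, S100a13 by 0.52 and Lgals9 by 0.60, while S100a4 was lower (-0.71, -0.82 to -0.61) and Lgals1 was lower (-0.37). The median depth of these quadriceps cells was 11457 UMIs with Pi16 and 10381 without, and the part of depth was not tested. In diaphragm just 27 of 852 cells lacked Pi16. There S100a11 differed by 0.67, S100a13 by 0.70 and S100a16 by 0.49 in the same direction, while S100a4 differed by -0.004 with an interval of -1.004 to 1.22. Of the 9 members 0 were past 2-fold in either direction in quadriceps, where 4.93% of genes were higher and 4.26% lower with Pi16. In diaphragm 1 of 7 tested members was, where 4.2% of genes were higher and 3.98% lower. This was Lgals9, at 1.52 with an interval of 0.62 to 2.68. It rests on 9 UMIs in the 27 cells without Pi16 (28.3 CPM), and it was tested through its level in Pi16-positive cells (82.7 CPM).

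Cells with Cxcl14, a chemokine gene of another FAP state, showed the opposite signs for these S100 genes in quadriceps. S100a11 differed by -0.70, S100a16 by -0.56 and S100a13 by -0.54 between Cxcl14-positive and Cxcl14-zero cells, and Lgals1 by 0.35. The median depth in quadriceps was 10693 UMIs in Cxcl14-positive and 11612.5 in Cxcl14-zero cells, and its part was not tested. In diaphragm S100a11 differed by -0.47 and S100a16 by 0.14. Cells with Has1, a hyaluronan synthase gene, had more S100a11 in both tissues, by 0.50 and 0.42. They were also deeper, with medians of 12312 against 10987 UMIs in quadriceps and 13373 against 12510.5 in diaphragm. S100a4 was lower in diaphragm within each of the 4 states split here, by -3.16 in Pi16-positive, -3.50 in Cxcl14-positive, -4.31 in Tnmd-positive and -3.24 in Has1-positive cells.

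Over single Prg4-zero FAPs all pairs of the other 5 S100 genes were positively correlated, whereas those with S100a4 ranged from about none to moderate. Pearson's r on log-scaled counts was 0.54 in quadriceps (918 cells) and 0.42 in diaphragm (852 cells) for S100a6 and S100a10. It was 0.48 and 0.40 for S100a10 and S100a11, and 0.35 and 0.24 for S100a4 and its near neighbour S100a6. The lowest pair without S100a4 was S100a10 and S100a16, at 0.30 and 0.20, so S100a4 and S100a6 lay above it in both tissues. Between S100a4 and S100a11 it was 0.06 and 0.04. Cells of a library share their pool and depth. With the log of the UMIs per cell, S100a10 had r of 0.23 and 0.30 and S100a11 had 0.31 and 0.27. The correlations are therefore a description.

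The map of the genes over cell classes put the FAP levels in context. It was made without the mitochondrial limit, since 1141 of 1145 quadriceps cells of the smooth muscle-like class exceeded it. Classes other than the gated FAPs were clusters named from marker lists. Their CPM are given for quadriceps, where 10 classes had at least 50 cells. In diaphragm just FAPs and T cell-like cells had as many.

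S100a4 was highest in macrophage or monocyte-like cells at 2246 CPM (2131 to 2365), then in tenocyte-like cells at 738, Schwann-like cells at 717, T cell-like cells at 635 and FAPs at 469 CPM. The intervals of tenocyte-like, Schwann-like and T cell-like cells overlapped. NK cell-like (250 CPM) and endothelial-like cells (232 CPM) followed with overlapping intervals, and satellite-like (109 CPM), smooth muscle-like (61.1 CPM) and B cell-like cells (2.97 CPM, from 2 UMIs) were lowest. In diaphragm the 26 macrophage or monocyte-like cells held 234 S100a4 UMIs among 257240, and the 46 smooth muscle-like cells held 2 among 497745. Diaphragm FAPs were at 27.4 CPM in this map.

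Lgals3 was concentrated in macrophage or monocyte-like cells of quadriceps, at 1508 CPM (1414 to 1607). Tenocyte-like cells came next at 119 CPM, then NK cell-like cells at 95.5, T cell-like cells at 71.7 and FAPs at 61.1 CPM, with the interval of each overlapping that of the next. Schwann-like cells were lowest at 1.83 CPM, from 2 UMIs. In diaphragm the 26 macrophage or monocyte-like cells held 203 Lgals3 UMIs among 257240, against 134 among 25876869 in all FAPs. Lgals1 was highest in NK cell-like (2443 CPM), tenocyte-like (2181 CPM) and Schwann-like cells (2004 CPM), with the interval of each overlapping that of the next, stood at 1295 CPM in FAPs and was lowest in endothelial-like (140 CPM) and B cell-like cells (35.6 CPM).

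FAPs held the highest quadriceps level of 5 of the 9 members. With cells limited to 5% mitochondrial UMIs or to at least 2000 UMIs they held that of 6, with S100a16. Endothelial-like cells, the highest class for S100a16 in the main map, were not ranked in either of these choices. Within the 5% limit just FAPs and NK cell-like, Schwann-like and macrophage or monocyte-like cells were ranked. S100a6 stood at 6260 CPM in FAPs, above tenocyte-like cells at 5463 and Schwann-like cells at 3118, with 71.3 CPM in B cell-like cells. S100a10 stood at 1762 CPM in FAPs and at 14.5 CPM in smooth muscle-like cells. S100a11 stood at 913 CPM in FAPs, 797 CPM in macrophage or monocyte-like cells and 781 CPM in endothelial-like cells, and the interval of the last (659 to 919) reached that of FAPs (902 to 925). S100a13 stood at 556 CPM and Lgals9 at 85.1 CPM in FAPs, the latter overlapping endothelial-like cells (64.6 CPM, 33.4 to 113).

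S100a16 was at 490 CPM in endothelial-like cells of quadriceps, 397 CPM in FAPs, 211 CPM in satellite-like, 169 CPM in tenocyte-like, 137 CPM in Schwann-like and 37.0 CPM in smooth muscle-like cells. In the 4 quadriceps leukocyte classes it was at 1.49 to 7.43 CPM, from 1 to 5 UMIs each. In diaphragm the 26 macrophage or monocyte-like cells held 20 S100a16 UMIs among 257240. The intervals of endothelial-like cells (394 to 602) and FAPs (390 to 405) overlapped.

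**Figure D5:**
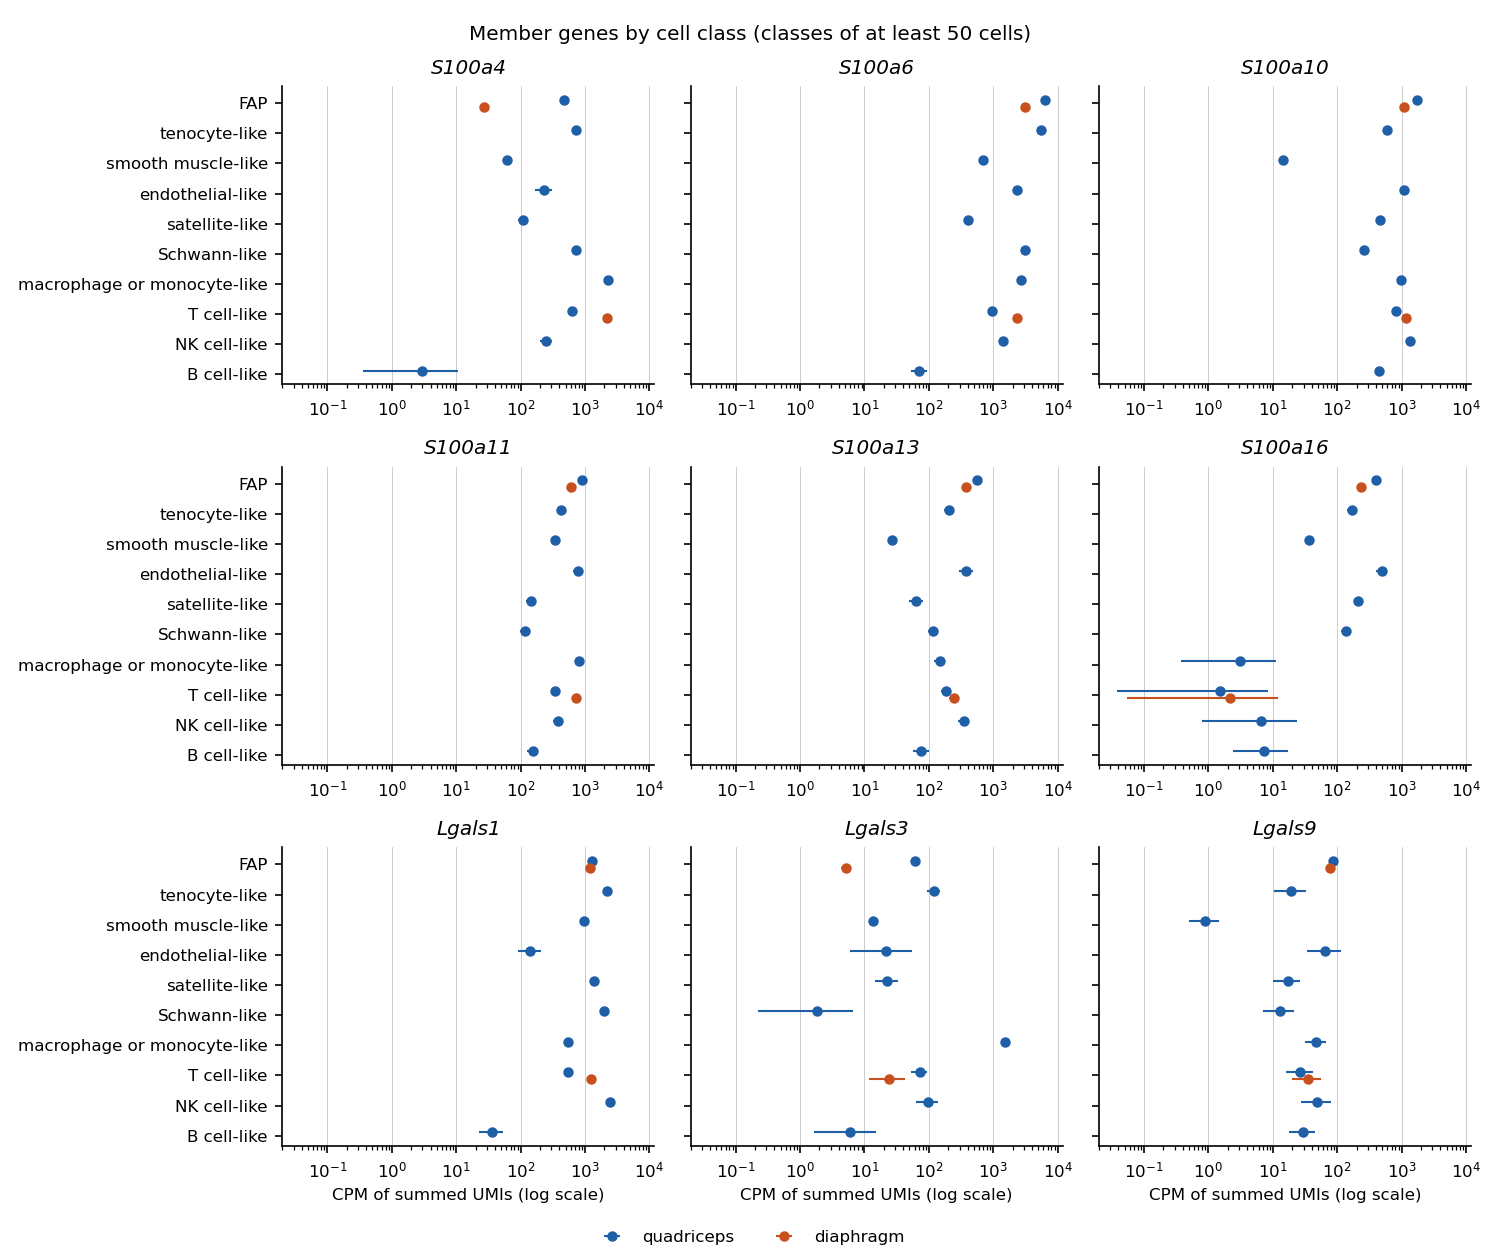
CPM of each member gene (log axis) by cell class, for quadriceps (blue) and diaphragm (orange), in classes of at least 50 cells; bars are exact Poisson 95% intervals. S100a4 and Lgals3 peak in macrophage or monocyte-like cells at 2246 and 1508 CPM, and S100a4 of diaphragm is low in FAPs (27.4 CPM) and high in T cell-like cells (2221 CPM).

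T cell-like cells differed between the tissues in the other direction. S100a4 stood at 635 CPM (576 to 698) in the 133 cells of quadriceps and at 2221 CPM in the 85 of diaphragm, a log2 difference of 1.81 (1.64 to 1.97). S100a6 went from 944 to 2349 CPM (1.31, 1.17 to 1.46), Lgals1 from 553 to 1254 CPM (1.18) and S100a11 from 345 to 735 CPM (1.09). Of 7 members tested, 4 were past 2-fold higher in diaphragm, where 13.1% of 2636 genes were. Lgals3 was past 2-fold lower by its sum, from 48 UMIs to 11 (-1.55), where 3.41% of genes were. Its 5 highest cells held 83.3% of the UMIs in quadriceps and 81.8% in diaphragm, and 8.27% and 8.24% of the cells had a UMI, so this value rests on a few cells. The median of all genes was shifted by 0.21.

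The share of T cell-like cells with an S100a4 UMI was 21.8% in quadriceps and 61.2% in diaphragm, or 16.5% and 51.8% after thinning to 1000 UMIs. The 5 highest cells held 44.7% and 32.1% of the S100a4 UMIs. Lyz2 had 1 UMI in the T cell-like cells of each tissue. The immediate early genes summed to 3613 and 5918 CPM, and whether they bear on the difference was not tested. Of these cells 101 of 133 and 65 of 85 exceeded the mitochondrial limit, so both tissues had under 50 T cell-like cells within it. The cells were not separated into T cell subtypes, so a different mix and a different level per cell cannot be told apart.

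Few relatives of the members reached the level needed for comparison in FAPs. Of 10 other S100 genes, S100a1 alone had at least 50 CPM, at 58.3 and 84.7 CPM in Prg4-zero FAPs of quadriceps and diaphragm (0.53) and at 58.6 and 51.8 CPM in Prg4-positive FAPs (-0.17). The genes on either side of S100a4 had few counts in Prg4-zero FAPs, with 21 and 6 UMIs of S100a3 and 5 and 1 of S100a5. S100b, the S100 gene of Schwann cells, had 182 and 47 UMIs. S100a8 and S100a9, the S100 genes of neutrophils and monocytes, had 5 and 4 UMIs in quadriceps and 1 each in diaphragm. Of 6 other galectin genes in the files, 0 reached that level in Prg4-zero cells, and in Prg4-positive cells Lgals8 (-0.23) and Lgalsl (-0.78) did.

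Of 12 tested annexins and other S100 partners, 0 were past 2-fold in Prg4-zero FAPs, against 7.93% of genes in either direction, with a median of -0.18, and 8 were lower in diaphragm, where 65.6% of all genes were. The largest differences were those of Anxa1 (1124 and 613 CPM, -0.88), Anxa2 (960 and 601 CPM, -0.67), Ahnak (-0.53), which encodes a scaffold that binds the S100A10 and annexin A2 complex, and Plat (0.34), the gene of tissue plasminogen activator. In Prg4-positive cells Plat alone was past 2-fold higher in diaphragm (149 and 307 CPM, 1.04), 1 of 12 against 6.37% of genes in either direction. Of 6 tested galectin ligands and glycan enzymes 0 were past 2-fold in Prg4-zero cells, led by Lgals3bp (-0.47), Cd47 (-0.41) and Itgb1 (-0.33), and of 7 in Prg4-positive cells 0 were. Nothing is read from these counts of 0, given those shares and so few genes.

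The genes whose levels followed those of a member most closely were found over the 12 combinations of class and tissue with at least 50 cells, among 6742 genes, by Pearson's r of log2 levels. S100a10 and Lgals9 were each other's nearest (r = 0.96). S100a16 was nearest to Sulf1 (0.98), S100a13 to Lgals3bp (0.94), S100a6 to Surf4 (0.91), Prkcsh (0.89) and Ahnak (0.89), and S100a11 to Fas (0.85). S100a4 was nearest to Tmem176a (0.83), Lgals1 to Akt2 (0.83) and Lgals3 to Tmem14c (0.81), Slpi (0.81) and Fcgr3 (0.80). The 12 points share 2 libraries, and the values are a description.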

How the data were processed

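Mononuclear cells of quadriceps and diaphragm were released with collagenase and dispase, passed over a density gradient, sorted for viability by light scatter and sequenced as single cells in droplets. The authors deposited unnormalized UMI counts, 1 matrix per tissue, and the submitters' notes name Cell Ranger 3.0.0, Seurat and mm10. Depth is given in the report. Barcodes with at least 1000 UMIs and no more than 3 scaled median absolute deviations above their library's median log10 depth were used here. The mitochondrial limit, printed by the study in a form that would leave almost no cell, was read as 5%. In all, 5 barcode sequences occurred in both libraries, 1 of them among FAPs, and no cell was removed for it.

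Counts were summed per group and scaled to CPM. Log2 differences used a pseudocount of 1 CPM, and a gene was tested if 1 of the groups reached 50 CPM. Past 2-fold was the call, and intervals of ratios were exact conditional binomial 95% intervals, for counting error only. Libraries were clustered jointly with scanpy 1.11.5 and leidenalg 0.10.2 (2000 variable genes without the S100, galectin and partner genes, scaled within library, 10 components, resolution 0.5). A cluster took the name of the marker list most seen in it, with at least 3 markers, unless more markers of another type were raised in it or stood among its top 10 genes. Scrublet, the gate, scaling, pseudocount, depth, clustering and mitochondrial limit were varied as alternatives. Gene positions were of GENCODE M21. All 9 members were named, and of other lists up to 4 genes with the largest difference, or 3 for likeness. S100b, S100a3, S100a5, S100a8, S100a9, Lgals8 and Lgalsl were named after their values were seen. Members and lists were chosen with earlier results of these data known. Methods were tested on simulated data with known folds.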

Additional observations from a re-analysis of the deposited data

Results flagged for a closer look

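S100a4, and S100a6 at the margin, were past 2-fold in opposite directions in FAPs and in T cell-like cells of the same libraries. The log2 difference of diaphragm over quadriceps was 1.81 for S100a4 in T cell-like cells against -4.05 in FAPs taken without the mitochondrial limit. For S100a6 it was 1.31 in T cell-like cells against -1.01 in FAPs, whose interval (-1.02 to -0.996) reached the 2-fold line, and in Prg4-zero FAPs within the mitochondrial limit it was -0.96, short of 2-fold. With 1 library per tissue the difference between the classes was not tested.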

How the results depend on the processing

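No paired analysis was possible because each tissue was 1 library, and for the same reason no replicate could be left out. S100a4 and Lgals3 kept their direction and stayed past 2-fold in every alternative run, S100a4 from -3.56 to -2.42 in Prg4-zero and from -4.67 to -3.75 in Prg4-positive FAPs, Lgals3 from -4.27 to -2.12 and from -3.48 to -2.38. No difference past 2-fold changed sign, while S100a11 (0.01) and Lgals9 (0.08) in Prg4-zero cells of the immediate early range and Lgals1 (0.01) in Prg4-positive cells under median ratio scaling turned from negative to just above 0. S100a6 in Prg4-positive cells stood under 2-fold with median ratio scaling (-0.97) and in the immediate early range (-0.87) and past it otherwise. Members past 2-fold lower in Prg4-zero cells numbered 5 rather than 2 in FAP-like clusters of the main clustering alone. There 5.5% of all genes were rather than 3.59%. That choice kept 905 of 918 quadriceps and 321 of 852 diaphragm Prg4-zero cells. Without a minimum CPM the genes past 2-fold numbered 598 lower (120 in the main comparison) and 536 higher (145) in Prg4-zero cells. In Prg4-positive cells they numbered 520 (85) and 455 (126). The genes tested rose as well, from 3340 to 17085 in Prg4-zero and from 3314 to 16814 in Prg4-positive cells. Between 0.3 and 1% immediate early UMIs the thinned share of FAPs with S100a4 was 17.1% in quadriceps and 4.10% in diaphragm. The cause was not tested for any of these beyond the change of cells or genes itself. Of the other values for the comparisons as a whole, 88 stayed close to the main ones. Of the log2 differences of single members, 196 stayed within the counting interval of the main value and 70 left it. Lgals9 in Prg4-positive FAPs, 0.07 in the main comparison, ran from -0.21 to 0.36 and so took both signs. Scrublet called 98 quadriceps and 4 diaphragm barcodes. Within 5% mitochondrial UMIs the T cell-like cells were too few in both tissues, so that alternative gave no T cell-like value. Lgals3 in diaphragm FAPs rests on 65 UMIs in each Prg4 group.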
